A study of Mus musculus with 16 samples.

Results

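The Iroquois homeobox genes of the mouse, Irx1 to Irx6, were followed through the peak lists of Jarid2, of Jarid2 dimethylated on its lysine K116 (Jarid2-K116me2) and of H3K27me3. All 6 genes of the family were taken, and their peaks were those that overlapped a gene or lay within 5 kb of it in the GENCODE annotation of build NCBIM37 (mm9). Peaks between the genes of a cluster were added. By this rule 12 of 4992 Jarid2 peaks and 13 of 4502 Jarid2-K116me2 peaks belonged to the family, and none of the 6 genes lacked a peak of either antibody.

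The Jarid2 and Jarid2-K116me2 peaks came from E14 embryonic stem cells (ESC), a wild-type mouse line grown in serum and LIF, with 1 sample per antibody. The 12 H3K27me3 samples came from Jarid2-/- ESC and from the same knockout cells rescued with a bacterial artificial chromosome (BAC) carrying wild-type Jarid2 or Jarid2 K116A, whose K116 lysine is replaced by alanine. Each of these 3 lines was profiled as ESC in serum and LIF and as embryoid bodies (EB), made in hanging drops with LIF withdrawn for 8 days, with 2 replicates each. All 3 lines thus lack endogenous Jarid2, and the BAC rescues carry it as an inserted copy. The study describes the H3K27me3 replicates as biological duplicates. Of 8 genes active in ESC, 7 had no peak of Jarid2 or Jarid2-K116me2 in E14 cells. Esrrb was the exception. Over all protein-coding genes, 18.1% had a Jarid2 peak within 5 kb and 16.0% a Jarid2-K116me2 peak, so this count does not set the active genes apart.

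The Iroquois proteins are transcription factors of the TALE homeodomain class, known for patterning the neural tube, the heart, the limbs and other organs of the embryo. Their genes lie in a pair of clusters made by an ancient duplication, so that Irx1 and Irx3, Irx2 and Irx5, and Irx4 and Irx6 are partners. Jarid2 is a subunit of Polycomb repressive complex 2 (PRC2), which trimethylates lysine 27 of histone H3 at developmental genes that are silent in ESC. PRC2 also methylates Jarid2 itself on K116, and H3K27me3 and methylated Jarid2 are both bound by its subunit Eed. In vertebrates, PRC2 is found mostly at CpG-rich DNA.

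The first cluster lies on chromosome 13. Irx1, a regulator of limb and lung development, lies at chr13:72095680-72101171 on the minus strand. Irx2, expressed with Irx1 in many tissues, lies at chr13:72766245-72771644 on the plus strand. Irx4, which marks the ventricles of the heart, lies at chr13:73397945-73407068 on the plus strand. The second cluster lies on chromosome 8. Irx3, a neural tube and heart conduction gene, lies at chr8:94322428-94325553 on the minus strand. Irx5, which acts with Irx3 in the heart and the limb, lies at chr8:94881695-94885351 on the plus strand. Irx6, expressed in the retina among other tissues, lies at chr8:95198188-95204855 on the plus strand. Both clusters thus have the same order and orientation of partners. The clusters span 1311.4 kb and 882.4 kb, with 665.1 kb and 626.3 kb of DNA between the genes of the first and 556.1 kb and 312.8 kb between those of the second.

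The 150 bases upstream of each annotated gene start lay wholly inside a peak of both antibodies, and are shown because they are the part of each gene that every member shares with both peak lists. They are read from NCBIM37 in the direction of transcription, 5′ to 3′, with each CG dinucleotide in capitals. Their positions are chr13:72101172-72101321 (minus strand) for Irx1, chr13:72766095-72766244 (plus) for Irx2, chr13:73397795-73397944 (plus) for Irx4, chr8:94325554-94325703 (minus) for Irx3, chr8:94881545-94881694 (plus) for Irx5 and chr8:95198038-95198187 (plus) for Irx6.
Irx1: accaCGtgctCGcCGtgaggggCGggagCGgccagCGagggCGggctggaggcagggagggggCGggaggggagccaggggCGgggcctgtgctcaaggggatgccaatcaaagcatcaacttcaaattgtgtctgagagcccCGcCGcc
Irx2: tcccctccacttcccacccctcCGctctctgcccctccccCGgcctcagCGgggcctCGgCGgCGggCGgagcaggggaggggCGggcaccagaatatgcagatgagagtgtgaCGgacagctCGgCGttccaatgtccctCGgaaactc
Irx4: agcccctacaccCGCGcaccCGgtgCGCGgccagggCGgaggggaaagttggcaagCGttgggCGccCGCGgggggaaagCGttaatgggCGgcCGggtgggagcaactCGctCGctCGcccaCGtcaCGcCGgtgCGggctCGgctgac
Irx3: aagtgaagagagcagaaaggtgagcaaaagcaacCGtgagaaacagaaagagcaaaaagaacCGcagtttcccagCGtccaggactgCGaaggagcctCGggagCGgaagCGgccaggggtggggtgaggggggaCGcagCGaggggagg
Irx5: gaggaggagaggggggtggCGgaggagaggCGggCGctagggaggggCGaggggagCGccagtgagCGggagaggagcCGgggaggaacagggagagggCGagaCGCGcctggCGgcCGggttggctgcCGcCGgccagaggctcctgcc
Irx6: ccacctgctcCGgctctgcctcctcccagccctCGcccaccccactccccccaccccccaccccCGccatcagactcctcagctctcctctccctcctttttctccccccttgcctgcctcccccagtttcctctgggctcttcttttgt
The Irx4 stretch held the most CG dinucleotides of the family, 21, and 6.39% of all 22350 protein-coding genes held as many. Irx5 held 14, Irx2 held 12, Irx1 held 11 and Irx3 held 9. Irx6 held 3, fewer than the median of 6 over all genes. It is also the member with the lowest top Jarid2 score below, and a link between these values was not tested. The letters CGCG, which read the same on both strands, were present upstream of Irx4 and Irx5 and absent from the other 4 stretches. They were present in 36.4% of these stretches over all genes.

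Between genes, 1 region carried both antibodies. It lay in the second cluster, 97974 bp beyond the 3′ end of Irx5 and before Irx6, outside every annotated gene. The Jarid2 peak spanned chr8:94983326-94985937 and scored 2643.79, while that of Jarid2-K116me2 spanned chr8:94983322-94985785 and scored 3100. The score is the peak caller's p-value as −10 times its log10, and the strongest peaks of both lists pile up at 3100. The 300 bases of this region that are richest in CG, chr8:94984204-94984503 on the plus strand, held 48 CG dinucleotides.
Intergenic region: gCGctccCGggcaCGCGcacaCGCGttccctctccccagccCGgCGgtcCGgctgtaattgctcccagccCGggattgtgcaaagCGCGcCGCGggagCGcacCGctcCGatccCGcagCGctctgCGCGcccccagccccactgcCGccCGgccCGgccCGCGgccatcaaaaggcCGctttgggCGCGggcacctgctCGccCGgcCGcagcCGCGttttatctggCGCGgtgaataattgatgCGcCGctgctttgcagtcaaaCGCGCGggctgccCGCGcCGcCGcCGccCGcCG
The stretch was 74.7% G and C. The first cluster had no peak of either antibody that was over 5 kb from a gene.

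**Figure D1:**
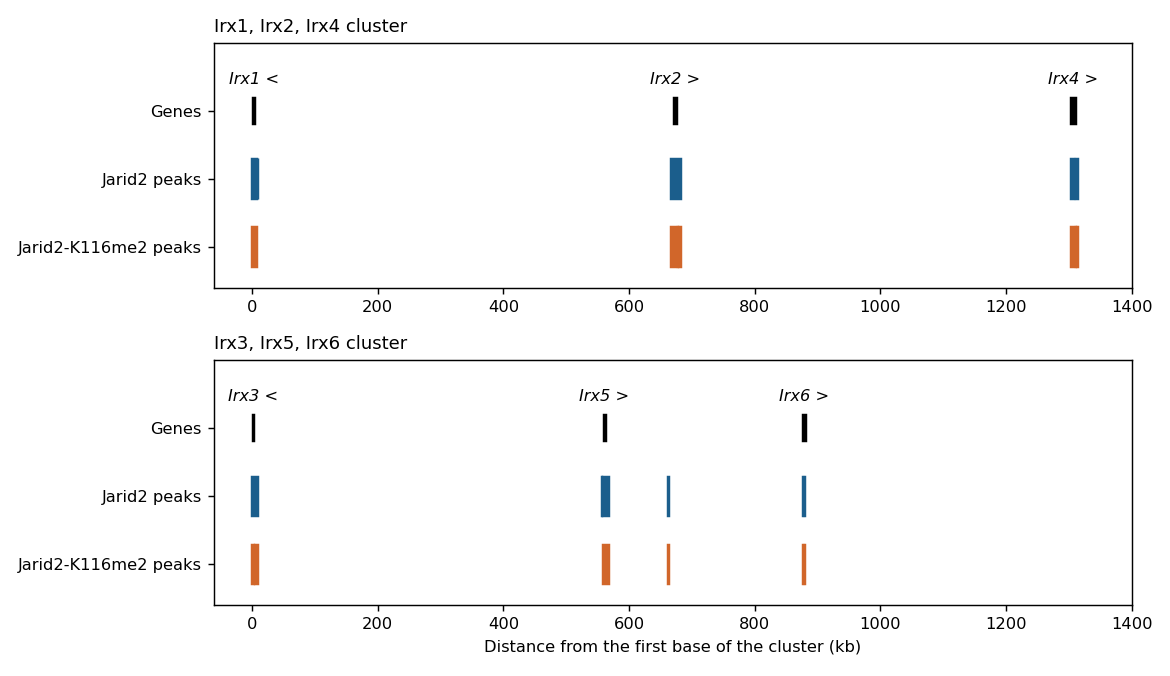
The 2 Irx clusters drawn to the same scale, with distance in kb from the first base of each cluster on the x axis and genes, Jarid2 peaks and Jarid2-K116me2 peaks on separate lines (< and > give the strand). Peaks of both antibodies sit on the 6 genes and on 1 intergenic region, and the DNA in between holds none.

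All 6 Irx genes had peaks of both antibodies that covered the gene start. Over all 22350 protein-coding genes, 18.1% had a Jarid2 peak within 5 kb, 16.0% a Jarid2-K116me2 peak and 15.8% both. Irx1, Irx2, Irx3, Irx4 and Irx5 reached 3100 in both peak lists, against 3.61% and 4.25% of all genes. Irx6 was lower, at 1889.31 for Jarid2 and 2024.46 for Jarid2-K116me2. With 1 sample per antibody these scores have no replicate error, and differences between them were not tested.

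At 4 of the 6 genes Jarid2 covered the whole gene, not just its start. The bodies of Irx1, Irx2, Irx3 and Irx5 lay entirely inside Jarid2 peaks, which held for 1.21% of all genes. These bodies are 3126 to 5492 bp long, and the shares over all genes were not matched for length. For Jarid2-K116me2 the bodies of Irx1, Irx3 and Irx5 were wholly covered, against 0.85% of all genes, and the body of Irx2 was covered to 81.1%. Irx4 was covered to 96.3% by Jarid2 and 74.3% by Jarid2-K116me2. Irx6 had the least covered body, with 56.6% under Jarid2 and 42.8% under Jarid2-K116me2.

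The Irx2 peak was the widest of the family. It spanned chr13:72760325-72778054, 17.7 kb, which ranked 44 among the 4992 Jarid2 peaks. The Irx5, Irx3 and Irx1 peaks followed with 11.0, 10.9 and 9.98 kb. Peaks wider than 9 kb made up 4 of the 12 Jarid2 peaks of the family and 3.83% of all Jarid2 peaks. For Jarid2-K116me2, 2 of 13 peaks were wider than 9 kb, those at Irx5 (10.6 kb) and Irx2 (10.3 kb), against 2.38% of all its peaks. The median width was 4149 bp for the Jarid2 peaks of the family and 1877 bp for all Jarid2 peaks.

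**Figure D2:**
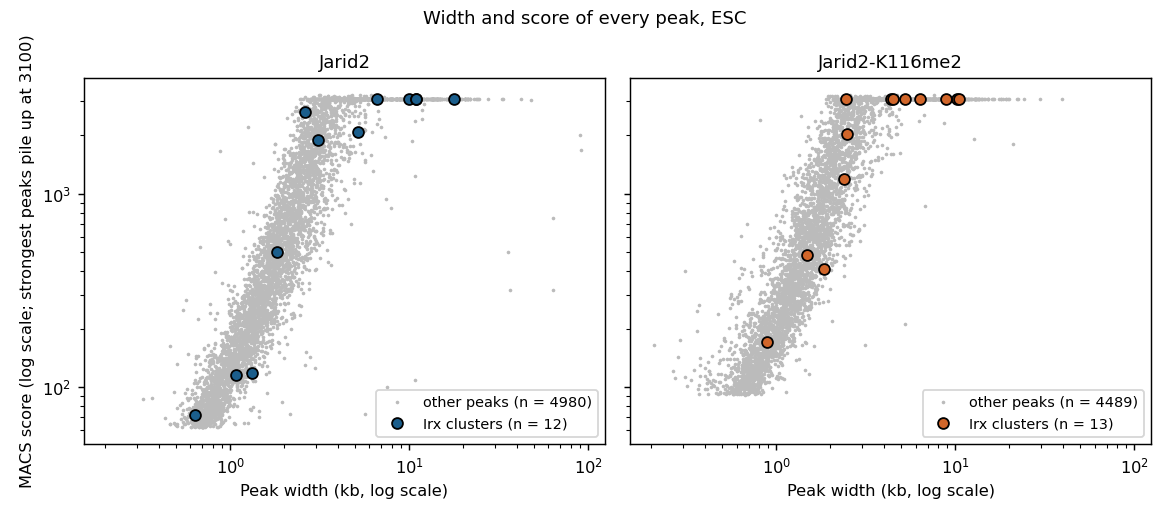
Width (x axis, kb, log scale) against MACS score (y axis, log scale) for every Jarid2 and Jarid2-K116me2 peak, with the Irx clusters as large points (12 and 13 peaks) and all others in grey. The wide Irx peaks lie on the line of points at 3100, and the narrow ones run down the same slope as the other peaks.

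At these genes the called peaks of Jarid2-K116me2 lay inside those of total Jarid2. The lowest score was 62.07 in the Jarid2 list and 91.86 in the Jarid2-K116me2 list. The study holds that peaks found with only 1 antibody most likely reflect differences in sequencing depth and background estimation, which was not tested here. Shares of bases were not computed over the genome. Within 5 kb of each of the 6 genes, every base under a Jarid2-K116me2 peak was also under a Jarid2 peak. Conversely, the share of Jarid2-covered bases that Jarid2-K116me2 also covered was 96.3% at Irx3, 87.3% at Irx5, 86.4% at Irx2, 83.8% at Irx1, 81.8% at Irx4 and 80.9% at Irx6. All 13 Jarid2-K116me2 peaks of the clusters overlapped a Jarid2 peak, as did 98.7% of all Jarid2-K116me2 peaks. In the other direction, 9 of the 12 Jarid2 peaks had a Jarid2-K116me2 partner, and 79.1% of Jarid2 peaks genome-wide did.

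The 3 Jarid2 peaks without a Jarid2-K116me2 partner were the lowest in score and all lay beside stronger ones. A peak of 637 bp and score 71.68 lay at chr13:72104764-72105400, 3.91 kb upstream of the Irx1 start. A peak of 1081 bp and score 115.93 lay at chr13:73403576-73404656 within Irx4. A peak of 1321 bp and score 118.03 lay at chr8:94878571-94879891, 2.46 kb upstream of the Irx5 start, in an intron of the gene 4933436C20Rik.

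At Irx2, Irx3 and Irx4, single Jarid2 peaks were broken into several Jarid2-K116me2 peaks. The Irx2 domain held 3 of them, with scores of 3100 over the gene and its upstream DNA, 172.49 just downstream and 3100 at the far end. The Irx3 domain held 2, both at 3100, of which the first covered the gene and its start and the second lay over the noncoding gene D230002A01Rik, which is transcribed from the opposite strand. At Irx4 the peak over the 3′ end of the gene held 2, at 406.57 and 1185.09. Over all regions with both antibodies, 8.65% had 1 Jarid2 peak and 2 or more Jarid2-K116me2 peaks. In total Irx4 had 3 peaks of each antibody and Irx6 had 2 of each.

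In each cluster the DNA under all Jarid2 peaks combined was richer in CpG than the DNA between them. The ratio of observed to expected CG dinucleotides was 0.527 under Jarid2 peaks and 0.159 between them in the Irx1, Irx2 and Irx4 cluster, and 0.614 and 0.196 in the Irx3, Irx5 and Irx6 cluster. Single Jarid2 peaks of the family ran from 0.191, a weak peak within Irx4, to 0.81, with a median of 0.529 against 0.574 for all Jarid2 peaks. Jarid2 covered 2.77% of the first cluster and 3.36% of the second, and the longest stretches without Jarid2 were 654.9 kb and 546.3 kb. Of the 3 nearest protein-coding genes on each side, Adamts16, a secreted metalloprotease gene, was the only one with peaks, at scores of 90.56 for Jarid2 and 94.38 for Jarid2-K116me2. Ndufs6, Mrpl36 and Lpcat1 beyond Irx4, and Fto, Rpgrip1l and Aktip before Irx3, had none. The near edge of Ndufs6 lies only 50.2 kb from the end of the Irx1, Irx2 and Irx4 cluster.

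Other developmental homeobox genes gave a scale for these values. All 6 Dlx genes, which pattern the forebrain and the limbs, had peaks of both antibodies with a Jarid2 score of 3100. All 39 Hox genes had both, and 35 of their bodies lay wholly in Jarid2 peaks. Of the 12 TALE genes outside the family, 5 had both, with the highest scores at Meis1, Meis2, Mkx and Pknox2. Both antibodies were found at 10 of 11 neural tube patterning genes, among them Pax6, Nkx2-2, Olig2 and Nkx6-1, and at 6 of 10 heart genes, among them Gata4, Hand2, Hand1 and Nkx2-5.

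H3K27me3 was then read at the same genes in the 3 Jarid2-/- derived lines. These peaks came from libraries of unequal yield: the 3 ESC libraries of replicate 1 held 1478 to 5183 peaks over 0.087% to 0.392% of the genome, and the other 9 held 6811 to 14125 peaks over 0.74% to 2.07%. The ESC libraries of replicate 1 therefore stand apart. The unscaled cluster tests and the main limma calls of the Irx genes are given with and without them. Scaled results, correlations, and counts of regions and gene starts are given only with them. The files hold no read counts. Read totals per library are stated by the study and entered none of these values. By those totals, the first ESC library had more reads than the second in Jarid2-/- cells and in the wild-type rescue. In the K116A rescue it had slightly fewer. The study defined its peak set for comparing ESC and EB from the second replicates, which it calls the higher quality samples. The part of depth in these values was not tested.

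Every Irx gene carried H3K27me3 in all 12 libraries except Irx6, which had none in the first ESC library of the wild-type rescue. This was so in Jarid2-/- cells too. The 12 regions with a Jarid2 peak in the clusters overlapped H3K27me3 in all 6 EB libraries at 7 regions and in all 6 ESC libraries at 5 regions. Over all 4941 such regions these shares were 44.6% and 13.9%. The 5 regions with H3K27me3 in all 12 libraries were the main domains of Irx1, Irx2, Irx4, Irx3 and Irx5. Within the clusters, most bases under H3K27me3 lay in E14 Jarid2 peaks. The exception was the second Jarid2-/- EB library in the Irx3, Irx5 and Irx6 cluster. Of the bases under H3K27me3, 69.6% to 100% per library lay in E14 Jarid2 peaks in the Irx1, Irx2 and Irx4 cluster, and 44.1% to 100% in the Irx3, Irx5 and Irx6 cluster. The same share over the genome was not computed.

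**Figure D3:**
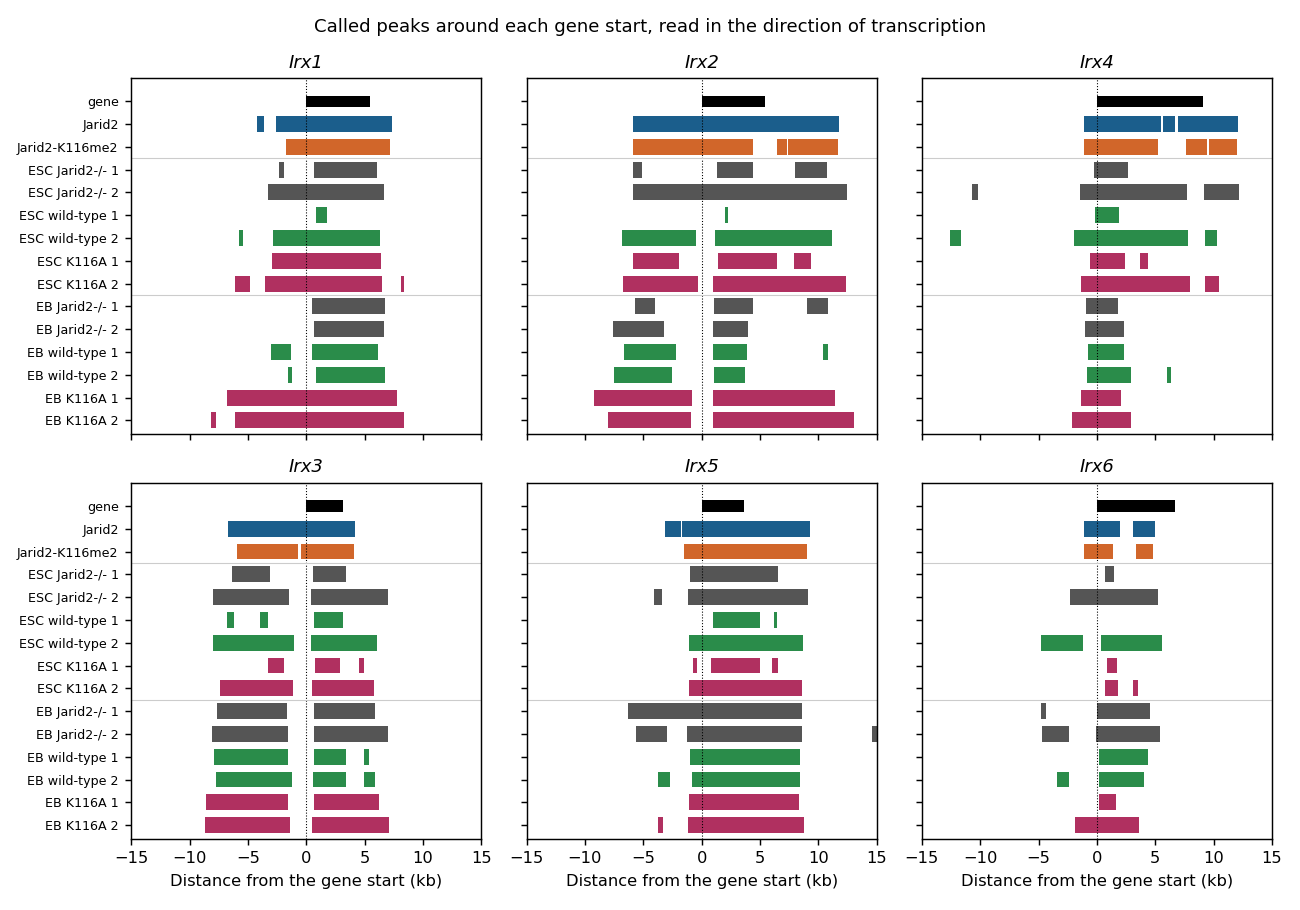
Called peaks within 15 kb of each gene start, with distance from the start in kb on the x axis (positive in the direction of transcription) and 1 line per peak list: Jarid2, Jarid2-K116me2 and the 12 H3K27me3 libraries. H3K27me3 peaks leave the start of Irx3 uncovered in every library, cover the start of Irx4 in every library, and cover more of Irx1 and Irx2 in the K116A EB libraries than in the other 4 EB libraries.

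At the gene starts themselves, the members differed. The Irx3 start was not covered by H3K27me3 in any of the 12 libraries, although Jarid2 and Jarid2-K116me2 covered it. In 10 of them H3K27me3 peaks lay within 3 kb on both sides, leaving gaps of 1449 to 2649 bp, and in the other 2 a peak lay on 1 side. Of the 2607 protein-coding genes whose start lies in a Jarid2 peak, 0.729% had such a flanked gap in at least 9 libraries. The limit of 9 libraries was set after these values were seen.

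The Irx2 start resembled that of Irx3, with gaps of 1268 to 3556 bp in 7 libraries, a peak on 1 side in 4, and a covered start only in the second Jarid2-/- ESC library. Irx4 showed the reverse, with a covered start in all 12 libraries. The Irx5 start was covered in 10, and 32.9% of the 2607 genes were covered in at least 9. The Irx1 start was covered in 6 libraries and that of Irx6 in 4.

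The share of each gene window (the gene and 5 kb on each side) under H3K27me3 peaks varied widely between ESC replicates. In ESC the lowest, median and highest of 6 libraries were 6.09%, 59.8% and 68.0% for Irx1, 1.84%, 75.8% and 100.0% for Irx2, and 10.8%, 37.2% and 63.4% for Irx4. In the second cluster they were 24.1%, 52.6% and 77.0% for Irx3, 31.1%, 63.2% and 76.8% for Irx5, and 0.0%, 7.18% and 53.1% for Irx6. In each of the 3 lines the second ESC library was the higher one at all 6 genes.

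In EB, Irx5 had the highest median of the family, with a lowest value of 69.0%, a median of 75.3% and a highest of 99.9% over the 6 EB libraries. In both K116A EB libraries Irx1 and Irx2 were covered more than Irx5. Over the 6 EB libraries the lowest, median and highest were 39.0%, 44.2% and 86.0% for Irx1, and 30.9%, 37.6% and 88.4% for Irx2. Irx3 gave 50.1%, 66.9% and 77.6%. Irx4 was low, with 14.2%, 17.8% and 26.5%, and Irx6 gave 8.78%, 29.2% and 46.8%. The ranges of Irx5 and Irx3 overlapped, as did those of Irx4 and Irx6. The K116A replicates of Irx6 were further apart in EB (8.78% and 32.8%) than in ESC (5.24% and 9.13%).

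The intergenic region downstream of Irx5 was covered in EB to between 94.3% and 100% in all 6 libraries. In ESC it was covered to 84.6% in Jarid2-/- cells, 75.6% in the wild-type rescue and 93.6% in the K116A rescue, each in replicate 2, and it had no peak in the 3 libraries of replicate 1. The EB and ESC values did not overlap, but the ESC zeros fall on the 3 libraries with the fewest peaks, whose part in this was not tested.

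**Figure D4:**
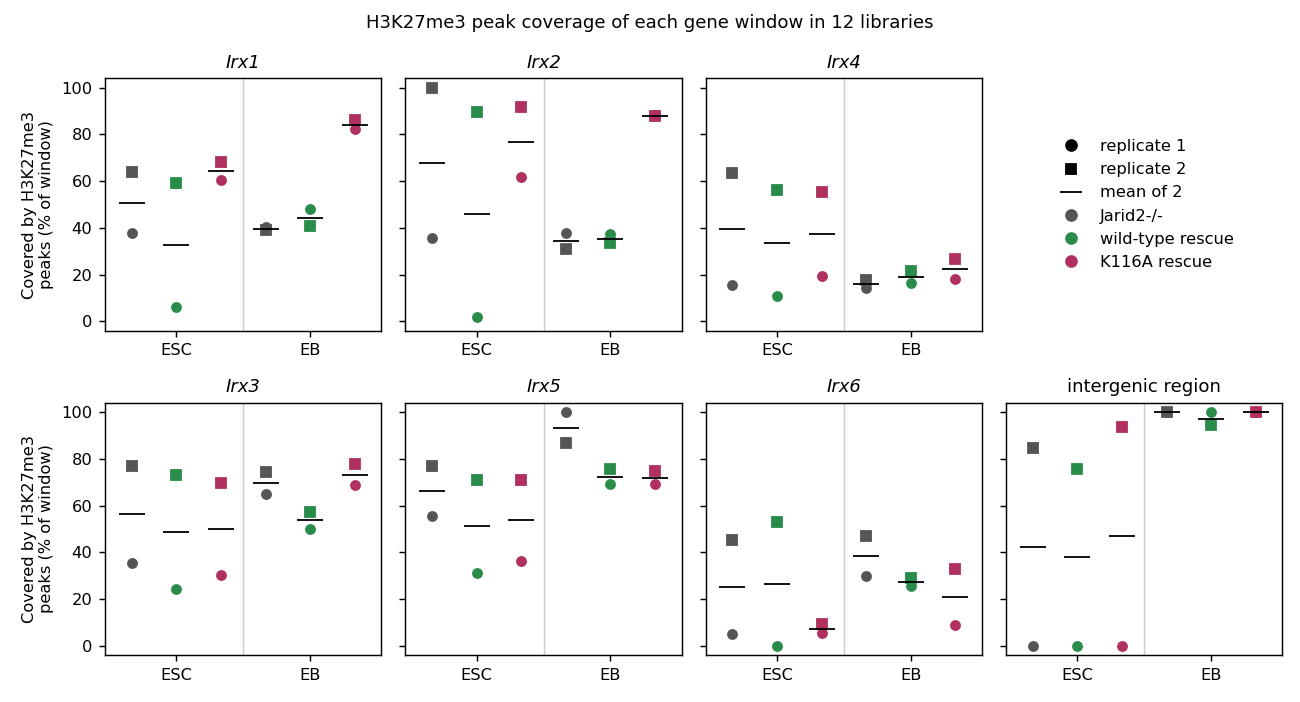
Percent of each gene window (gene and 5 kb on each side, or the intergenic region and 500 bp on each side) under H3K27me3 peaks in 12 libraries, with circles for replicate 1, squares for replicate 2 and a bar for their mean. In ESC, replicate 1 lies below replicate 2 in every panel. In EB the K116A rescue lies at 82.4% to 88.4% at Irx1 and Irx2, above both other lines.

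Over whole clusters, EB and ESC differed at the threshold of the test in the Irx3, Irx5 and Irx6 cluster, and the result depended on the libraries and the scaling in both clusters. Peaks covered 3.83% ± 1.23 (SD, n = 6) of the Irx3, Irx5 and Irx6 cluster in EB and 2.24% ± 1.21 (SD, n = 6) in ESC, with p = 0.0498 (exact permutation test, two-sided). This call was at the threshold: it was lost when labels were permuted within each line (exact permutation p = 0.0648), and without the 3 ESC libraries of replicate 1 the difference fell from 1.6 to 0.554 percentage points (exact permutation p = 0.571). After division by the percent of the genome covered in the same library the difference turned to -1.48 (exact permutation p = 0.26). Within lines, the values in ESC and then EB were 1.61% and 3.65% against 3.93% and 6.18% in Jarid2-/- cells, 0.911% and 3.5% against 3.08% and 3.31% in the wild-type rescue, and 1.06% and 2.67% against 2.78% and 3.71% in the K116A rescue. Both Jarid2-/- and both K116A EB libraries thus exceeded the ESC libraries of their line, and the wild-type libraries overlapped.

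In the Irx1, Irx2 and Irx4 cluster the same share was 1.8% ± 0.719 (SD, n = 6) in EB and 1.97% ± 1.14 (SD, n = 6) in ESC (exact permutation test, two-sided, p = 0.732). Without the 3 ESC libraries of replicate 1 the difference went from -0.17 to -1.11 percentage points (exact permutation p = 0.0714). Divided by the percent of the genome covered, the difference became -1.71 (exact permutation p = 0.00649), so that relative to all H3K27me3 peaks this cluster had less in EB. This ratio was not tested without the 3 ESC libraries of replicate 1. Within lines, the values in ESC and then EB were 1.13% and 2.84% against 1.22% and 1.52% in Jarid2-/- cells, 0.251% and 2.73% against 1.35% and 1.28% in the wild-type rescue, and 1.72% and 3.17% against 2.64% and 2.8% in the K116A rescue. The groups overlapped in each line.

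Gene by gene, limma was fitted to log2(mean score over the window + 1) for 8069 protein-coding genes with a peak in at least 2 libraries. None of the 6 Irx genes passed an adjusted p of 0.05 in any of the 7 comparisons of the design, and none had an unadjusted p under 0.05, the lowest being 0.202. This held without rescaling of the libraries; after quantile normalization Irx1, Irx2 and Irx4 passed as lower in Jarid2-/- EB than ESC, with log2 differences of -2.06, -1.92 and -2.34 (limma adjusted p = 0.00384, 0.0148 and 0.0054). From ESC to EB, 24.5% of all genes were called in Jarid2-/- cells, 0.062% in the wild-type rescue and 2.97% in the K116A rescue. The change from ESC to EB differed from that of the wild-type rescue for 7.3% of genes in Jarid2-/- cells and 0.186% in the K116A rescue. In ESC, 0% of genes differed between Jarid2-/- cells and the wild-type rescue (20 genes at an unadjusted p under 0.05) and 0.0124% between the rescues. Without the 3 ESC libraries of replicate 1 these shares in ESC were 6.66% and 5.21%, and the count from ESC to EB in the wild-type rescue went from 5 to 570 genes.

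The differences of the Irx genes had standard errors of 1.08 to 2.45 on the log2 scale in this fit, so that changes of a few fold were not detectable. From ESC to EB they ran from -1.0 (Irx4) to 1.43 (Irx6) in Jarid2-/- cells, where the median over all genes was 0.90, with adjusted p-values of 0.527 to 0.802. In the wild-type rescue they ran from -0.49 (Irx4) to 1.56 (Irx6) against a median of 0.16, and in the K116A rescue from 0.02 (Irx4) to 1.70 (Irx6) against 0.44. No tested TALE, Dlx or Hox gene was called in these 3 comparisons either. Not every listed gene had a peak in at least 2 libraries. This fit tested 6 of the 12 TALE genes, 10 of the 11 neural tube genes, 8 of the 10 heart genes and 3 of the 8 genes active in ESC. Olig2 (log2 difference 3.81) and Gja5 (2.06) rose in Jarid2-/- EB, and of the genes active in ESC, Sox2 (2.53) rose in Jarid2-/- cells and Klf4 in the Jarid2-/- (4.29) and K116A (6.16) lines.

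Without the 3 ESC libraries of replicate 1, the Irx1 and Irx2 pair did pass. Each ESC group then had 1 library, assumed to vary like the other groups. Irx1 was lower in EB by a log2 difference of -1.51 ± 0.13 (SE) in Jarid2-/- cells and -1.02 ± 0.13 in the wild-type rescue, with limma adjusted p-values of 0.00454 and 0.0303. In this fit 12.9% and 6.44% of all genes were called lower in these comparisons. Irx2 was lower by -1.55 ± 0.18 and -1.73 ± 0.18 (adjusted p = 0.0113 and 0.0158). In the K116A rescue the differences were positive, 0.57 for Irx1 and 0.63 for Irx2, and did not pass (adjusted p = 0.0923 and 0.138). The difference of this change between the K116A and wild-type rescues was 1.59 for Irx1 and 2.36 for Irx2. With all libraries it was 0.13 ± 1.67 (SE) for Irx1 and 0.29 ± 2.06 for Irx2. With each library left out in turn it ran from -1.74 to 2.00 for Irx1 and from -2.24 to 2.81 for Irx2. Its sign thus depended on the libraries kept. Irx3, Irx4, Irx5 and Irx6 passed in none of these comparisons. This fit was added after the data were seen.

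Irx1 and Irx2 carried the most H3K27me3 in EB of the K116A rescue. The mean score over the Irx1 window was 89.7 and 95.5 in the 2 K116A EB libraries, 27.5 and 26.0 in the wild-type rescue and 24.1 and 24.1 in Jarid2-/- cells. The K116A values lie far above the other 4, which are close together. At Irx2 the mean score was 94.4 and 105.4 in the K116A rescue, 21.2 and 18.8 in the wild-type rescue and 29.4 and 25.5 in Jarid2-/- cells. The window of Irx1 was covered to 82.4% and 86.0% in the K116A rescue, 47.9% and 40.6% in the wild-type rescue and 40.3% and 39.0% in Jarid2-/- cells. For Irx2 these shares were 88.4% and 87.8%, 37.5% and 33.3%, and 37.8% and 30.9%. The weak Jarid2 peak upstream of Irx1, at chr13:72104764-72105400, was wholly covered by H3K27me3 in both K116A EB libraries and in none of the other 10.

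Irx4, the other gene of this cluster, had mean scores of 18.0 and 32.7 in the K116A rescue, 11.5 and 14.5 in the wild-type rescue and 8.9 and 17.7 in Jarid2-/- EB. The K116A values were again the highest, by a small margin. Both K116A EB libraries lay above the other 4 at 3 of the 6 genes, Irx1, Irx2 and Irx4, and at 15.5% of all 7041 genes with a peak in at least 2 EB libraries. H3K27me3 peaks covered 0.876% and 1.4% of the genome in the K116A EB libraries, more than the 0.74% and 0.848% of the wild-type rescue, and 1.27% and 2.07% in Jarid2-/- EB. Divided by these shares, the covered percent of the Irx1 window was 94.1 and 61.5 in the K116A rescue and 64.7 and 47.8 in the wild-type rescue, so that the lines overlapped. At Irx2 the ratios were 100.9 and 62.7 against 50.6 and 39.3, and did not overlap.

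A limma fit to the 6 EB libraries alone, added after these values were seen, compared the lines at 7041 genes. The log2 difference of K116A minus wild-type rescue was 1.76 ± 0.30 (SE) for Irx1 and 2.27 ± 0.32 for Irx2, with adjusted p-values of 0.0485 and 0.0344, and 1.86% of all genes were called higher. The median difference over all genes was 0.44. Against Jarid2-/- EB the differences of Irx1 and Irx2 were 1.90 ± 0.30 and 1.83 ± 0.32 (adjusted p = 0.0109 and 0.0129), with 5.91% of genes called higher and a median over all genes of -0.50. The calls against Jarid2-/- EB ended without the first K116A EB library (adjusted p = 0.0563 and 0.0588), without the second Jarid2-/- EB library (0.0794 and 0.0847) and with all 12 libraries in the fit (0.37 and 0.523). Irx4 gave 0.87 and 0.90 and passed neither (adjusted p = 0.359 and 0.241). The genes of the other cluster did not pass, with differences from the wild-type rescue of 0.93 for Irx3, 0.09 for Irx5 and -0.33 for Irx6. In the same comparison 3 of 39 Hox genes were called, Hoxd1 (1.94), Hoxd3 (1.79) and Hoxd4 (2.93), all higher in the K116A rescue. No tested TALE, Dlx, neural tube or heart gene was called. The median difference in each of these lists was still above that of all genes. It was 1.22 for Hox and 0.96 for neural tube genes, against 0.90 for the Irx genes. The heart genes had the highest median, and the Dlx (0.65) and TALE (0.61) genes lay below the Irx genes. Whether Irx1 and Irx2 differ from these lists was not tested. Against Jarid2-/- EB, Gata4 (4.45), Pax6 (3.16), Tbx5 (3.05), Hoxd1 (1.64), Hand1 (1.33) and Klf4 (1.87) were higher in the K116A rescue, and Sox2 was lower (-2.53). Some of these genes also differed between Jarid2-/- and wild-type rescue EB. There Hoxd4 (1.81), Hoxb13 (1.24), Dbx1 (1.98), Dlx3 (1.62) and Sox2 (2.53) were called higher in Jarid2-/- EB, and Pax6 was called lower (-1.73).

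Jarid2-/- and wild-type rescue EB did not differ past the threshold at any Irx gene in this fit, in which 23.4% of all genes did. Other settings called some of them: Irx5 as higher in Jarid2-/- EB by the gene start window (1.07, adjusted p = 0.0376), Irx4 as lower after centring (-1.15, adjusted p = 0.00748), and Irx1 and Irx4 as lower after quantile normalization (-1.37 and -1.33, adjusted p = 0.0379 and 0.00856). The largest differences were 0.98 for Irx3 (limma adjusted p = 0.113) and 0.96 for Irx5 (adjusted p = 0.0596), close to the median of all genes, 0.95. The calls for Irx1 and Irx2 against the wild-type rescue rest on 2 libraries a line. Leaving out any of the 4 EB libraries of these 2 lines, or the second Jarid2-/- EB library, ended both calls, and leaving out the first ended that of Irx1, with differences of 1.71 to 1.80 for Irx1 and 2.18 to 2.35 for Irx2. Centring (1.02 and 1.54, adjusted p = 0.183 and 0.0962), quantile normalization (0.67 and 1.15, adjusted p = 0.282 and 0.107) and the fit with all 12 libraries (adjusted p = 0.761 and 0.749) ended both as well.

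**Figure D5:**
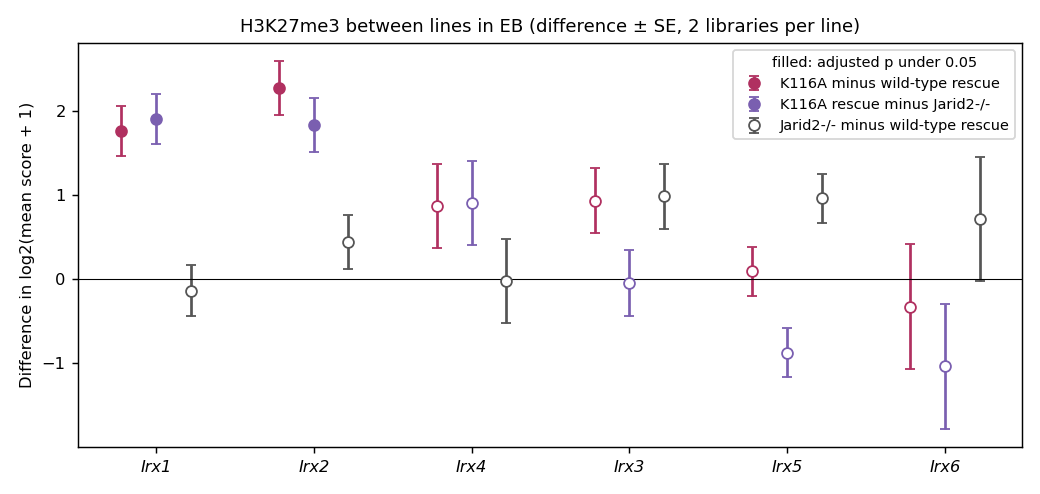
Difference in log2(mean H3K27me3 score + 1) between lines in EB for each Irx gene (y axis), with bars for the standard error of limma, 2 libraries per line, and filled points for an adjusted p under 0.05. Irx1 and Irx2 stand at 1.76 to 2.27 in the K116A rescue against either other line, and the 3 genes of the second cluster lie at 0.93 or lower in these comparisons.

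Over the 12 libraries, H3K27me3 values were closer between most genes of a cluster than between partners. As a description, Pearson's r was 0.99 between Irx1 and Irx2, 0.94 between Irx3 and Irx5, 0.92 between Irx5 and Irx6 and 0.90 between Irx3 and Irx6. Irx4 was less like its cluster, at 0.74 with Irx1 and with Irx2, near the highest values across clusters (0.68 for Irx2 and Irx3, 0.67 for Irx3 and Irx4). Between partners across clusters it was 0.64 for Irx1 and Irx3, 0.56 for Irx2 and Irx5 and 0.53 for Irx4 and Irx6. These values share the yield of each library, and the median r of all tested genes with the mean of the family was 0.50. The genes over 1 Mb away whose values were most like that mean were Maf (r = 0.98), Ptpru, Shmt2, Klhdc8a and Prox1 (each 0.97), over 12 libraries and 8069 genes.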

How the data were processed

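The series measured Jarid2 and Jarid2-K116me2 in 1 E14 ESC sample each, and H3K27me3 in 12 samples, by ChIP-seq. The authors aligned reads to mm9 with Bowtie2 2.1.0 and called peaks per sample, pooling no replicates, with MACS 1.4.2 for the Jarid2 antibodies and MACS2 2.0.10 in broad mode for H3K27me3, at their own FDR thresholds. Each deposited file lists peaks with a position and a score. The Jarid2 score is −10 times the log10 of the p-value, not normalized for depth. The scale of the H3K27me3 score is not given in the sources used here, so it was used only between libraries of this series, as the authors deposited it. The files give no fold enrichment, q-value, summit or read number. Read totals that the study states per library entered no value here. The score therefore replaced the fold enrichment named in the design. The input samples have no values in this report.

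Peaks were assigned to genes of GENCODE vM1 on NCBIM37 within 5 kb, with an overlap of at least 1 bp, and all peaks fell within the chromosome ends. H3K27me3 was summarised per window (gene and 5 kb on each side) as the percent covered by peaks and as the mean score, with bases outside peaks as 0. Clusters were compared by exact permutation tests. Genes were tested with limma 3.58.1 (R 4.3.3) with a trended prior on log2(mean score + 1), over genes with a peak in at least 2 libraries, with Benjamini-Hochberg adjustment over all genes tested. The fits and the interval functions were checked on made-up data. A fold change on this scale understates the change of low genes. Genes were named by a rule: the 6 members, noncoding genes with a peak and the 3 nearest neighbours on each side, from each list up to 4 genes by Jarid2 score and up to 4 called, and the 5 genes most like the family. The members and lists were chosen with earlier results of these data known. Alternatives covered distances, scores, scaling, pseudocount, filter, window, the replicate block and leaving out libraries.

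Replicate numbers were not treated as pairs. Differences between replicates 1 and 2 correlated at 0.62 to 0.65 among the ESC groups and at -0.02 to 0.22 among the other pairs of groups.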

Additional observations from a re-analysis of the deposited data

Results flagged for a closer look

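Of 18 sets of 6 libraries, each a gene window, the intergenic region or a cluster in ESC or in EB, 2 had a library flagged. The rule compared the gap between an end value and its neighbour with the range. By chance about 1 in 20 such sets would, if values were normal and had no upper limit. In EB the Irx3, Irx5 and Irx6 cluster was covered by H3K27me3 to 6.18% in the second Jarid2-/- library and to 2.78% to 3.93% in the other 5. That library also had the most peaks of all 12 (14125) and covered the most of the genome (2.07%), and 44.1% of its H3K27me3 bases in this cluster lay in E14 Jarid2 peaks, the lowest share of the 12. In EB the intergenic region downstream of Irx5 was covered to 94.3% in the second library of the wild-type rescue and to 100% in the other 5. With 5 libraries at 100%, any lower value would be flagged, so this flag says nothing about that library.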

How the results depend on the processing

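Peak assignment at the Irx genes changed little with the settings: all 6 genes kept peaks of both antibodies at 0, 1 and 10 kb, at a score of at least 500 and at the same lowest score in both lists, and with an overlap of 50% of each peak 7 Jarid2-K116me2 peaks, in place of 13, had a Jarid2 partner. The alternatives that needed q-values were not run. Those with a score of at least 50, with percent covered, without the 3 ESC libraries of replicate 1, and all comparisons between lines in EB were chosen after seeing the data. No cause of the changes below was tested. The fit with no filter rests on genes whose variance is mostly 0, for which limma gives a warning.

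For the Irx3, Irx5 and Irx6 cluster the difference in coverage of 1.6 percentage points was 1.56 with 50 kb added (exact permutation p = 0.0584), 1.6 with labels permuted within lines (0.0648), and 0.554 without the 3 ESC libraries of replicate 1 (0.571). As pairs by line and number, the replicate block, it was 1.6 (exact p = 0.0625). Divided by the percent of the genome covered it was -1.48. It ran from 1.13 to 1.88 with each library left out. For the Irx1, Irx2 and Irx4 cluster the difference of -0.17 became -1.71 after that division, -1.11 without the 3 ESC libraries, and ran from -0.514 to 0.0699 with each library left out.

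Irx genes called in limma stayed at 0 in the designed comparisons with each library left out. Without the 3 ESC libraries of replicate 1, 2 were called from ESC to EB in Jarid2-/- cells, 2 in the wild-type rescue (Irx1 -1.02 and Irx2 -1.73, against 0.85 and 0.80 with all libraries, and up to 2.72 and 3.32 with 1 library left out) and 2 in the difference between the rescues. In Jarid2-/- cells 2 were called after centring and 3 after quantile normalization. Among EB, Jarid2-/- against the wild-type rescue called 1 by the gene start window, 1 after centring and 2 after quantile normalization. K116A against the wild-type rescue called 2, but 0 after centring, 0 with all 12 libraries in the fit, 1 after quantile normalization (Irx5, -0.96 against 0.09) and 0 to 1 with each library left out. K116A against Jarid2-/- called 2, but 0 with all 12 libraries, 4 after quantile normalization and 0 to 3 with each library left out. The replicate block kept these 2 counts at 2.

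Counts over all genes moved more. From ESC to EB in Jarid2-/- cells 1975 genes were called, with no filter 1283, at a score of 50 or more 848, and 504 to 2284 with each library left out. In the wild-type rescue 5 were called, against 40 with a pseudocount of 0.1, 1 with no filter, 0 by the gene start window, 325 after centring, 93 after quantile normalization, 8 at a score of 50, 45 by percent covered, 570 without the 3 ESC libraries, and 0 to 1 with each library left out. In the K116A rescue 240 became 374 with a pseudocount of 0.1, 62 with no filter, 581 after centring, 706 after quantile normalization, 613 with the replicate block, 849 without the 3 ESC libraries, and 0 to 283 with each library left out. The difference of change between Jarid2-/- and wild-type rescue, 589, became 43 with no filter, 244 after quantile normalization, 375 at a score of 50, 693 without the 3 ESC libraries, and 11 to 659 with each library left out. Between the rescues, 15 became 59 with a pseudocount of 0.1, 0 with no filter, 139 after centring, 31 after quantile normalization, 39 at a score of 50, 70 by percent covered, 423 without the 3 ESC libraries, and 0 to 17 with each library left out. In ESC, Jarid2-/- against the wild-type rescue went from 0 to 1 after quantile normalization, 537 without the 3 ESC libraries, and 0 to 74 with each library left out. K116A against the wild-type rescue went from 1 to 0 with no filter, 2 by the gene start window, 7 after centring, 6 after quantile normalization, 420 without the 3 ESC libraries, and 0 to 6 with each library left out. In EB, Jarid2-/- against the wild-type rescue, 1651, became 2613 with the replicate block, 903 at a score of 50, and 0 to 1999 with each library left out. K116A against the wild-type rescue, 167, became 503 with a pseudocount of 0.1, 707 with no filter, 444 by the gene start window, 1021 after centring, 911 after quantile normalization, 521 with the replicate block, 415 at a score of 50, 402 by percent covered, and 0 to 153 with each library left out. K116A against Jarid2-/-, 1701, became 2701 after centring, 957 at a score of 50, and 1 to 1511 with each library left out.

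Scaling also shifted the direction of calls. From ESC to EB the share of called genes that were higher was 98.3% in Jarid2-/- cells and 71.2% after quantile normalization, 100% and 87.1% in the wild-type rescue, and 96.7%, 80.6% after centring and 57.9% after quantile normalization in the K116A rescue. For the change in Jarid2-/- against wild-type rescue it was 98.8% and 88.5% after quantile normalization, and for that of K116A 86.7% and 96.8%. In ESC the single gene called in K116A against the wild-type rescue was higher, against 85.7% after centring and 50% after quantile normalization. In EB it was 94.9%, 78.7% and 54.3% for Jarid2-/- against the wild-type rescue, 78.4%, 68% and 53.1% for K116A against it, and 24.5%, 41% and 52.8% for K116A against Jarid2-/-, unscaled, centred and quantile normalized. Quantile normalization moved the median log2 difference over all genes from 0.90 to -0.04 for Jarid2-/- EB against ESC.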
